A study of Mus musculus with 6 samples.

Results

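The Notch ligand genes Dll1, Jag1 and Jag2, the receptor genes Notch1, Notch2 and Notch4 and the target genes Hes1 and Hey1 were followed in RAW 264.7 cells, a mouse macrophage line, after 8 h with lipopolysaccharide (LPS), a wall component of Gram-negative bacteria, at 100 ng/ml together with 100 pM LPS-binding protein, which carries LPS to the cell surface, and in the same line left untreated for 8 h. These 8 genes, of 10698 with a feature on the array, were taken as every feature whose platform symbol is one of the 8 names, which gave 10 of 16281 features (probes). Each of 6 two-colour arrays compared treated with untreated RNA. The arrays came in 3 numbered sets of 2, with the treated RNA labelled with Cy5 on one (a treated-Cy5 array) and with Cy3 on the other (a treated-Cy3 array). The labels call the line RAW 264.7 in most places and RAW 264.4 in 6, once for each array, for the Cy5-labelled RNA. The cells were taken as 1 line, and whether the sets came from different cultures is not stated, so the spread between sets may be technical. Each value below is a log2 ratio turned to treated over untreated, and a value listed at exactly 0 was taken as not measured. The direction is a likely one, resting on labels that describe the Cy3 RNA as control and the Cy5 RNA as test, and all signs would exchange under the other reading. A ratio gives no level of a transcript, so levels cannot be ordered between genes, and fewer cells with a transcript cannot be told apart from less of it per cell.

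Notch signalling passes between touching cells. A ligand of the Delta or Jagged family on one cell binds a Notch receptor on its neighbour, an ADAM protease and then gamma-secretase cut the receptor, and the freed intracellular part enters the nucleus and joins the DNA-binding protein RBPJ and a Mastermind coactivator to turn on genes such as Hes1 and Hey1, which encode transcriptional repressors. In macrophages the pathway is known to interact with Toll-like receptor signalling.

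The treatment was visible on the same arrays in standard LPS response genes. All 11 features of Tnf, Il6, Il1b, Nos2, Cxcl10 and Ptgs2 had higher ratios on every measured array, with log2 ratios between 1.13 and 4.04. Under the other reading of the direction all 11 would be lower in treated cells, although LPS is known to induce these genes in macrophages. Of 14343 probes tested with limma, 4690 passed an adjusted p of 0.05 over the 3 set means, and without set 3 the count was 2956 of 13444. Of 10 macrophage marker genes 9 had a feature, all 9 were measured on at least 1 array, and of the 8 that could be tested 5 rose and 1 fell (limma, adjusted p under 0.05). The ratios cannot show whether a marker was high or low in the cells. Markers of T cells, B cells, endothelium and fibroblasts were also measured (18 of 20), of which 2 rose and 0 fell. By the same rule 17.7% of all 10088 genes tested rose and 17.1% fell. Cd4 rose in 1 feature (log2 ratio 0.55, limma's adjusted p = 0.0124), with its other feature at -0.060 (adjusted p = 0.593), and Kdr rose in its single feature (0.74, adjusted p = 0.00553). They were named after their values were seen, and their part in the Notch ratios was not tested.

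Promoter windows are shown for Dll1, Jag2 and Notch2, whose 5 features were the ones with the same sign on every measured array among the 8 genes. Each runs from 250 bases before to 50 bases after a RefSeq gene start (GRCm38.p6), on the gene's strand. Capitals mark a match to the consensus of NF-kappaB, a transcription factor that LPS activates. Dll1 had 2 windows, of which only the one with such a match is printed.
Dll1, chr17:15375774-15376073, minus strand: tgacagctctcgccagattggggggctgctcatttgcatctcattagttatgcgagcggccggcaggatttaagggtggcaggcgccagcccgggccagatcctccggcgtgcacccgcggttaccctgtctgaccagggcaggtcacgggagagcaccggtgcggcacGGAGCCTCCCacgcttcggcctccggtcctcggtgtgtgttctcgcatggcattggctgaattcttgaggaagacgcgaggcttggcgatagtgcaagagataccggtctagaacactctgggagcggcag
Jag2, chr12:112929446-112929745, minus strand: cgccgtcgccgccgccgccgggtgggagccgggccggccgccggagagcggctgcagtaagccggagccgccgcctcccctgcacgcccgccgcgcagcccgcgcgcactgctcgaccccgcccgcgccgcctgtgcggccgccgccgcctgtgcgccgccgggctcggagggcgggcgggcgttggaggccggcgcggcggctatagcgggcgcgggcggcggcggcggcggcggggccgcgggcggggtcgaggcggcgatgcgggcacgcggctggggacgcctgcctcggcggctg
Notch2, chr3:98013288-98013587, plus strand: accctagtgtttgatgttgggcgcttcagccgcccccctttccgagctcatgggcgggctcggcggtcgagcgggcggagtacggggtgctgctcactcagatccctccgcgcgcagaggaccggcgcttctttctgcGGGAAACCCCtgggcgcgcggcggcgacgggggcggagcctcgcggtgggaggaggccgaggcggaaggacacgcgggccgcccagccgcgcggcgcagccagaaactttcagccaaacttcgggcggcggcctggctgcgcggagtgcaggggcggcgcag
The RefSeq table held windows for 6 of the 8 genes and none for the target genes Hes1 and Hey1. Both strands were searched. The consensus, which matched on at least 1 strand in 8.46% of 32851 such windows of all genes, was found in the windows of Dll1 (1 of its 2 windows), Notch2 and Notch4. In Notch2 the same letters matched on both strands. The core that RBPJ binds, TGGGAA, was in 25.6% of all windows and in none of the windows of the 6 ligand and receptor genes. The Jag2 window was 86.0% G and C, against a median of 52.7% over all windows, and 99.9% of windows had a lower share. The matching windows of Dll1, Notch2 and Notch4 were 62.7%, 73.0% and 58.3% G and C. The other windows of the 6 genes also lay above the median, and the 8.46% was not adjusted for this. A match describes letters only.

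Dll1, which encodes a Delta-type ligand, was the member with the highest ratio, and it was higher in treated cells on every array that measured it. Jag2, a Jagged-type ligand, had the lowest ratio and was lower in treated cells on every array, while Jag1, its relative, stood slightly above 0. The 8 genes were selected on whether they were measured, with their treated over untreated ratios known, so the ratios are given as a description and no p-value is attached to them. Of the 10 features, 3 were past limma's threshold and higher and 2 past it and lower, where 17.1% and 15.6% of all probes tested were. In all 5 of 10 features passed, against 32.7% of probes, or 3 of 8 genes against 35.1% of genes. The sign was the same on every measured array for 5 of 10 features, against 32.6% of probes. The choice of genes means that nothing is read from these counts.

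The Dll1 feature 12221 had log2 ratios of 1.22, 1.24 and 1.42 on the treated-Cy5 arrays of sets 1, 2 and 3, and of 1.62, 1.47 and 1.61 on the treated-Cy3 arrays. All 6 values lay within a narrow band well above 0, and the treated-Cy3 arrays were the higher in each set. Its set means averaged 1.43 ± 0.08 (SD, n = 3 sets), or 2.69-fold. The other Dll1 feature, 17383, read 1.50 and 2.35 in sets 2 and 3 on treated-Cy5 arrays, and 1.19, 1.09 and 2.18 in sets 1, 2 and 3 on treated-Cy3 arrays. Its value on the treated-Cy5 array of set 1 was listed at 0. This feature was thus higher on all 5 measured arrays, with set 3 apart from the others in both orientations. Its 2 complete sets had means of 1.30 and 2.27, averaging 1.78 ± 0.68 (SD, n = 2 sets), or 3.44-fold. Only 1.85% and 1.35% of the probes tested had a higher ratio than the 2 features, or a lower one under the other reading of the direction.

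Jag2 was also represented by a pair of features. The feature 6795 read -0.82, -0.38 and -0.84 in sets 1, 2 and 3 on treated-Cy5 arrays, and -1.01, -0.32 and -1.01 on treated-Cy3 arrays. Set 2 was nearest to 0 in both orientations, and no array reached 0. The mean was -0.73 ± 0.33 (SD, n = 3 sets), a 1.66-fold lower ratio. The feature 16107 read -0.72, -0.90 and -0.94 on treated-Cy5 arrays, and -0.92, -0.37 and -0.99 on treated-Cy3 arrays. Here only the Cy3 array of set 2 stood apart from the rest. This feature averaged -0.80 ± 0.17 (SD, n = 3 sets), or 1.75-fold lower, so the features of Jag2 differed by less than their SDs. Of the probes tested, 1.52% and 1.16% had a lower ratio than these 2, with the same condition on direction.

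Jag1, a ligand known in vascular and bile duct development, read 0.19, -0.017 and 0.40 in sets 1, 2 and 3 on treated-Cy5 arrays, and 0.28, 0.15 and 0.46 on treated-Cy3 arrays. One array was just below 0 and the other 5 above it, with set 2 the lowest in both orientations. The mean was 0.25 ± 0.18 (SD, n = 3 sets). Dll1, Jag1 and Jag2 all had the set mean smallest in size in set 2, while the median size of change over the 4524 called probes with 3 set means was 0.37 in set 1, 0.37 in set 2 and 0.38 in set 3.

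**Figure D1:**
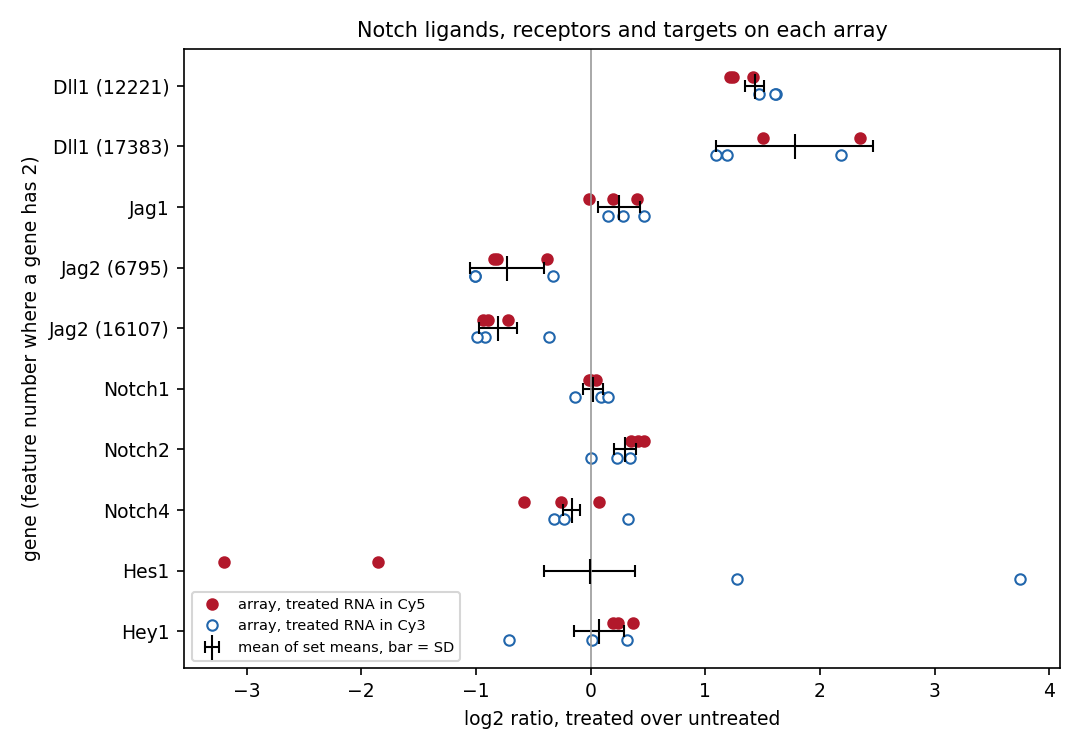
Log2 ratio of treated over untreated cells (horizontal axis) for each of the 10 features, with 1 point per measured array (filled for treated-Cy5 arrays, open for treated-Cy3 arrays) and the mean of set means with its SD. Both Dll1 features lie right of 0 and both Jag2 features left of 0 on all measured arrays, and the 4 Hes1 values split by dye orientation.

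Of the 3 receptor genes, Notch2 had the highest ratio, Notch1 lay near 0 and Notch4 lay below it. Notch2 read 0.42, 0.47 and 0.35 in sets 1, 2 and 3 on treated-Cy5 arrays, and 0.0053, 0.34 and 0.23 on treated-Cy3 arrays. All 6 values were above 0, and the treated-Cy3 array of set 1 was close to it. The mean was 0.30 ± 0.10 (SD, n = 3 sets), or 1.23-fold. The orientation means were 0.41 on treated-Cy5 arrays and 0.19 on treated-Cy3 arrays.

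Notch1, the receptor best known from T cell development, had its 6 values between -0.13 and 0.15, with 4 above 0 and 2 below. Its mean was 0.024 ± 0.09 (SD, n = 3 sets). Notch4, a receptor known from endothelium, ran from -0.58 to 0.32 over the arrays, with 2 values above 0 and 4 below. Its arrays overlapped 0 widely, although the set means of -0.12, -0.13 and -0.25 lay close together at an average of -0.17 ± 0.07 (SD, n = 3 sets).

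The target genes gave no clear ratio. For Hes1, the feature was listed at 0 on both arrays of set 3, and the 4 remaining values split by dye. Treated over untreated, it read -3.20 and -1.86 in sets 1 and 2 on treated-Cy5 arrays, and 3.74 and 1.28 on treated-Cy3 arrays. As deposited, all 4 ratios were negative, so the Cy5 channel was the dimmer one whichever RNA it carried, or the brighter one if the ratios run Cy3 over Cy5. The orientations cancelled in the set means of 0.27 and -0.29, which averaged -0.0077 ± 0.40 (SD, n = 2 sets). With an orientation difference (treated-Cy5 minus treated-Cy3 array) of -5.04 ± 2.69 (SD, n = 2 sets), the mean near 0 does not show that Hes1 was unchanged.

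The difference between orientations does not enter the set means, so it could be tested. By size of this difference Hes1 ranked 2 among 14343 probes, and limma's adjusted p was 0.164 over its 2 sets. At this number of arrays limma called 1 probe (0.00697% of those tested), while 3788 of the 14343 had an unadjusted p under 0.05. A probe that did not pass is thus not shown to be free of an orientation difference. None of the other 9 Notch features passed, with adjusted p from 0.146 to 0.863 and differences from -0.27 to 0.40. Hes1 stood with a group of probes of the same kind. In 1745 of the 14343 probes (12.2%) the orientations had opposite signs on every measured array. Of these, 49 differed by more than 2 on the log2 scale, and in all 49 the Cy5 channel was the dimmer one in both orientations, or the brighter one in all 49 under the other reading. Among the other Notch pathway genes described below, 12 of 80 probes had opposed orientations on every measured array.

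**Figure D2:**
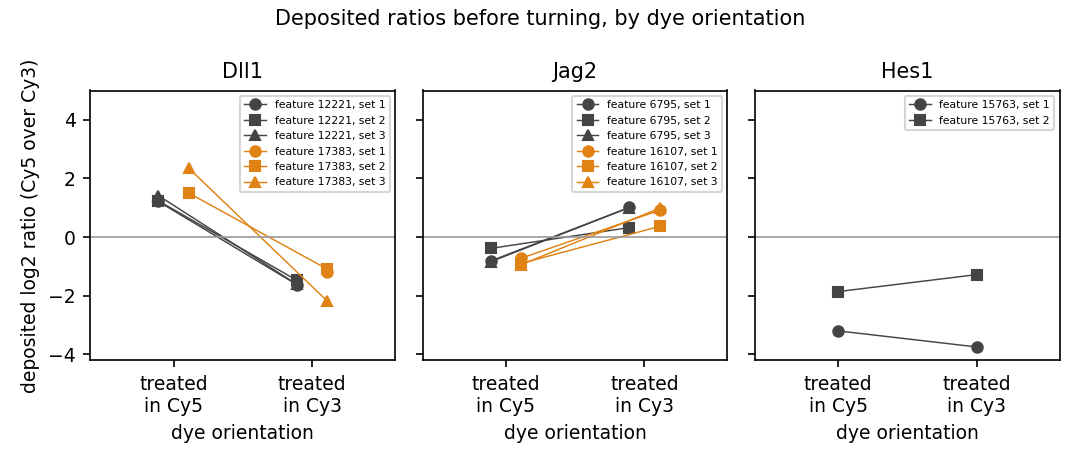
Deposited log2 ratios of Cy5 over Cy3 (vertical axis) for Dll1, Jag2 and Hes1 on treated-Cy5 arrays (left of each panel) and treated-Cy3 arrays (right), with lines joining the arrays of a set and values of 0 left out. Dll1 and Jag2 change sign with the dye exchange, and Hes1 stays between -3.74 and -1.28 in both orientations.

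Hey1, the other target, read 0.37, 0.24 and 0.20 in sets 1, 2 and 3 on treated-Cy5 arrays, and -0.71, 0.011 and 0.32 on treated-Cy3 arrays. It was above 0 on 5 arrays and clearly below on the Cy3 array of set 1. Its set means averaged 0.071 ± 0.22 (SD, n = 3 sets). The orientation means were 0.27 on treated-Cy5 arrays and -0.13 on treated-Cy3 arrays.

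**Figure D3:**
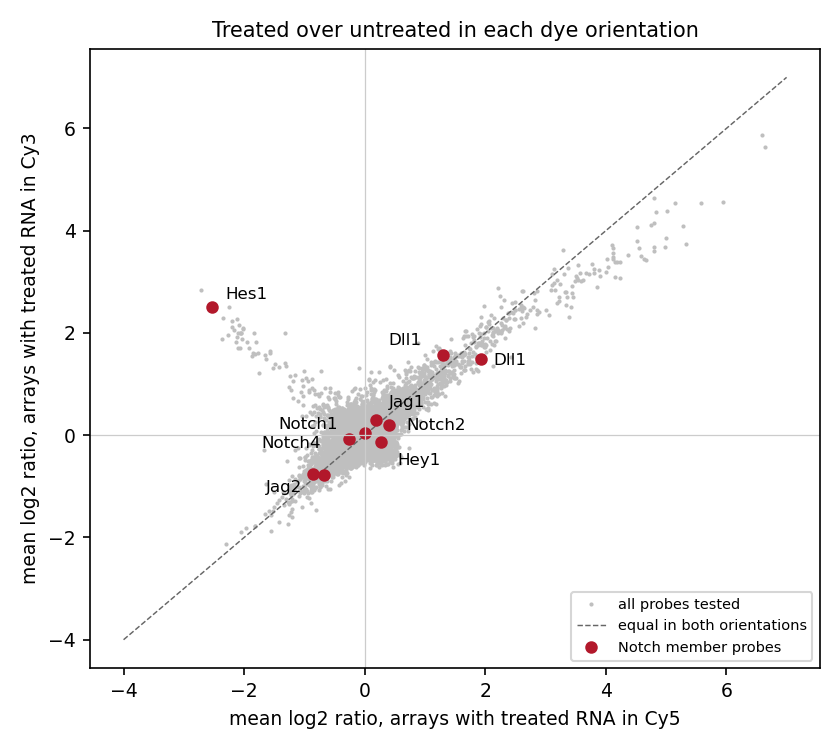
Mean log2 ratio of treated over untreated cells on treated-Cy5 arrays (horizontal axis) against treated-Cy3 arrays (vertical axis), for all 14343 probes tested (grey) and the 10 Notch features (red). Dll1 and Jag2 lie near the line of equal values, and Hes1 lies far off it at -2.53 and 2.51.

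Other genes of the Notch pathway moved in both directions, and the named changes were mostly of less than 2-fold. Of 85 listed, 63 had a feature and 61 could be tested, and 15 of these rose and 9 fell (limma, adjusted p under 0.05 for at least 1 feature). That is 24.6% and 14.8% of the tested genes, against 17.7% that rose and 17.1% that fell among 10088 genes by the same rule. Without set 3, 12 rose and 4 fell of 57, where 12.5% of all genes rose and 10.9% fell. Without set 2, 16 rose and 12 fell of 56, against 19.2% and 19.5% of all genes. On the treated-Cy3 arrays alone 14 rose and 4 fell of 62, against 13% and 11.2% of all genes, and on the treated-Cy5 arrays alone 14 rose and 13 fell of 61, against 16.4% and 17.9%. Against the main fit, the counts of listed genes thus moved in the same direction as the shares of all genes. This held for the genes that rose and for those that fell. The median log2 ratio was -0.0048 over the listed genes and -0.0077 over all genes. Adjusted p was at most 0.0285 for the 24 genes, in limma over 3 set means unless stated, and errors are SDs over the set means.

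None of 5 tested ligand or ligand-like genes passed, and Dll4, the Delta-type ligand of endothelium, had log2 ratios of 0.0048 ± 0.09 and -0.045 ± 0.06 over its features (SD, n = 3 sets). Dlk2, the member of this group with the smallest p, stood at 0.069 (limma's adjusted p = 0.382). The remaining receptor, Notch3, had a log2 ratio of 0.0030 ± 0.09 over 2 sets (adjusted p = 0.983), with opposite signs in the dye orientations. Among 4 tested genes for ligand ubiquitylation and endocytosis none passed, and Epn1, an endocytic adaptor, was nearest at -0.16 ± 0.09 (adjusted p = 0.0793).

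Of 4 genes that act on the receptor during its passage to the surface, 2 fell and 1 rose. Mfng and Rfng, which encode Fringe enzymes that extend sugars on Notch and change its response to ligands, fell by 0.48 ± 0.11 and 0.40 ± 0.11 on the log2 scale. Both were lower on 6 of 6 arrays. Lfng, the remaining Fringe gene, did not pass at -0.31 ± 0.30 (limma's adjusted p = 0.0833), and was lower on 5 of 6 arrays. Furin, the convertase that cuts the receptor precursor, rose by 0.57 ± 0.14 in 1 feature, while its other feature stood at 0.018 ± 0.04 with opposite signs in the dye orientations.

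The proteases that release the intracellular part split as well. Adam17, which also frees tumour necrosis factor from the cell surface, rose by 0.57 ± 0.10 and 0.58 ± 0.07 in its features, each higher on 6 of 6 arrays. Adam10, the main ligand-dependent Notch protease, fell by 0.24 ± 0.11 and 0.24 ± 0.12. In gamma-secretase, the subunit genes Aph1b and Aph1c fell by 0.66 ± 0.11 and 0.39 ± 0.21, and both belong to closely related copies whose signals may not be fully separate on the array. Ncstn, the nicastrin subunit, rose by 0.23 ± 0.05 and 0.20 ± 0.05. Psenen, another subunit, had a log2 ratio of 0.00067 ± 0.02, the average of orientation means of 0.10 on treated-Cy5 arrays and -0.10 on treated-Cy3 arrays, which were opposed in every set. Psen2, a catalytic subunit, ran from -2.64 to 2.78 with opposite signs in the dye orientations, as Hes1 did.

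In the nucleus, Rbpj, the DNA-binding partner of the Notch intracellular part, rose by 0.72 ± 0.09 on the log2 scale. It read between 0.63 and 0.85 on the 6 arrays (limma's adjusted p = 0.000239), and the orientation means were 0.70 on treated-Cy5 arrays and 0.75 on treated-Cy3 arrays. The acetyltransferase gene Kat2b rose by 0.49 ± 0.09 in its tested feature, and the other 3 coactivator or complex genes did not pass. Of 11 corepressor genes, 3 rose and 1 fell. Tle4, a Groucho-type corepressor, rose by 0.79 ± 0.09 and 0.40 ± 0.02 in its features. Cir1, which binds RBPJ, rose by 0.38 ± 0.03, and the histone deacetylase gene Hdac1 by 0.30 ± 0.03. Tle5, a short Groucho relative, was the corepressor gene that fell, by 0.23 ± 0.05.

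Of 9 genes for negative regulation and turnover, 2 rose. The ubiquitin ligase gene Cbl rose by 0.33 ± 0.06, and Itch, another ubiquitin ligase, rose by 0.24 ± 0.08 in 1 feature and stood at 0.025 ± 0.07 in the other. Nrarp, a feedback inhibitor that Notch induces in several tissues, had a log2 ratio of -0.11 ± 0.17 (limma's adjusted p = 0.329). Itch, Adam10, Tle5 and Ncstn were the 4 called genes outside the 20 with the largest changes and were named after their values were seen.

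Among 15 tested genes listed here as Notch targets or as Hes and Hey family members, 5 rose and 3 fell. Those that rose also answer to other signals: Myc rose by 3.66 ± 0.46, the cyclin-dependent kinase inhibitor gene Cdkn1a by 0.40 to 1.35 over 3 features, and the phosphatase gene Dusp1 by 0.67 (3 sets) and 0.88 (2 sets). Nfkb2, an NF-kappaB subunit gene, rose by 0.38 ± 0.07, and Ccnd1 rose by 0.25 ± 0.04 in 1 feature with the other at -0.014. The survival gene Bcl2 fell by 0.37 ± 0.08 in 1 of its features, the other standing at -0.093. In the Hes and Hey families themselves, Hes3 fell by 0.29 ± 0.07 and Hes6, which counters Hes1, by 0.29 ± 0.17, each lower on 5 of 6 arrays. Hes2, Hes5, Hey2 and Heyl did not pass, with log2 ratios between -0.12 and 0.0037, and Heyl had opposite signs in the dye orientations. Dll4, Lfng, Psenen, Psen2, Nrarp, Hes2, Hes5, Hey2 and Heyl were also named after their values were seen.

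**Figure D4:**
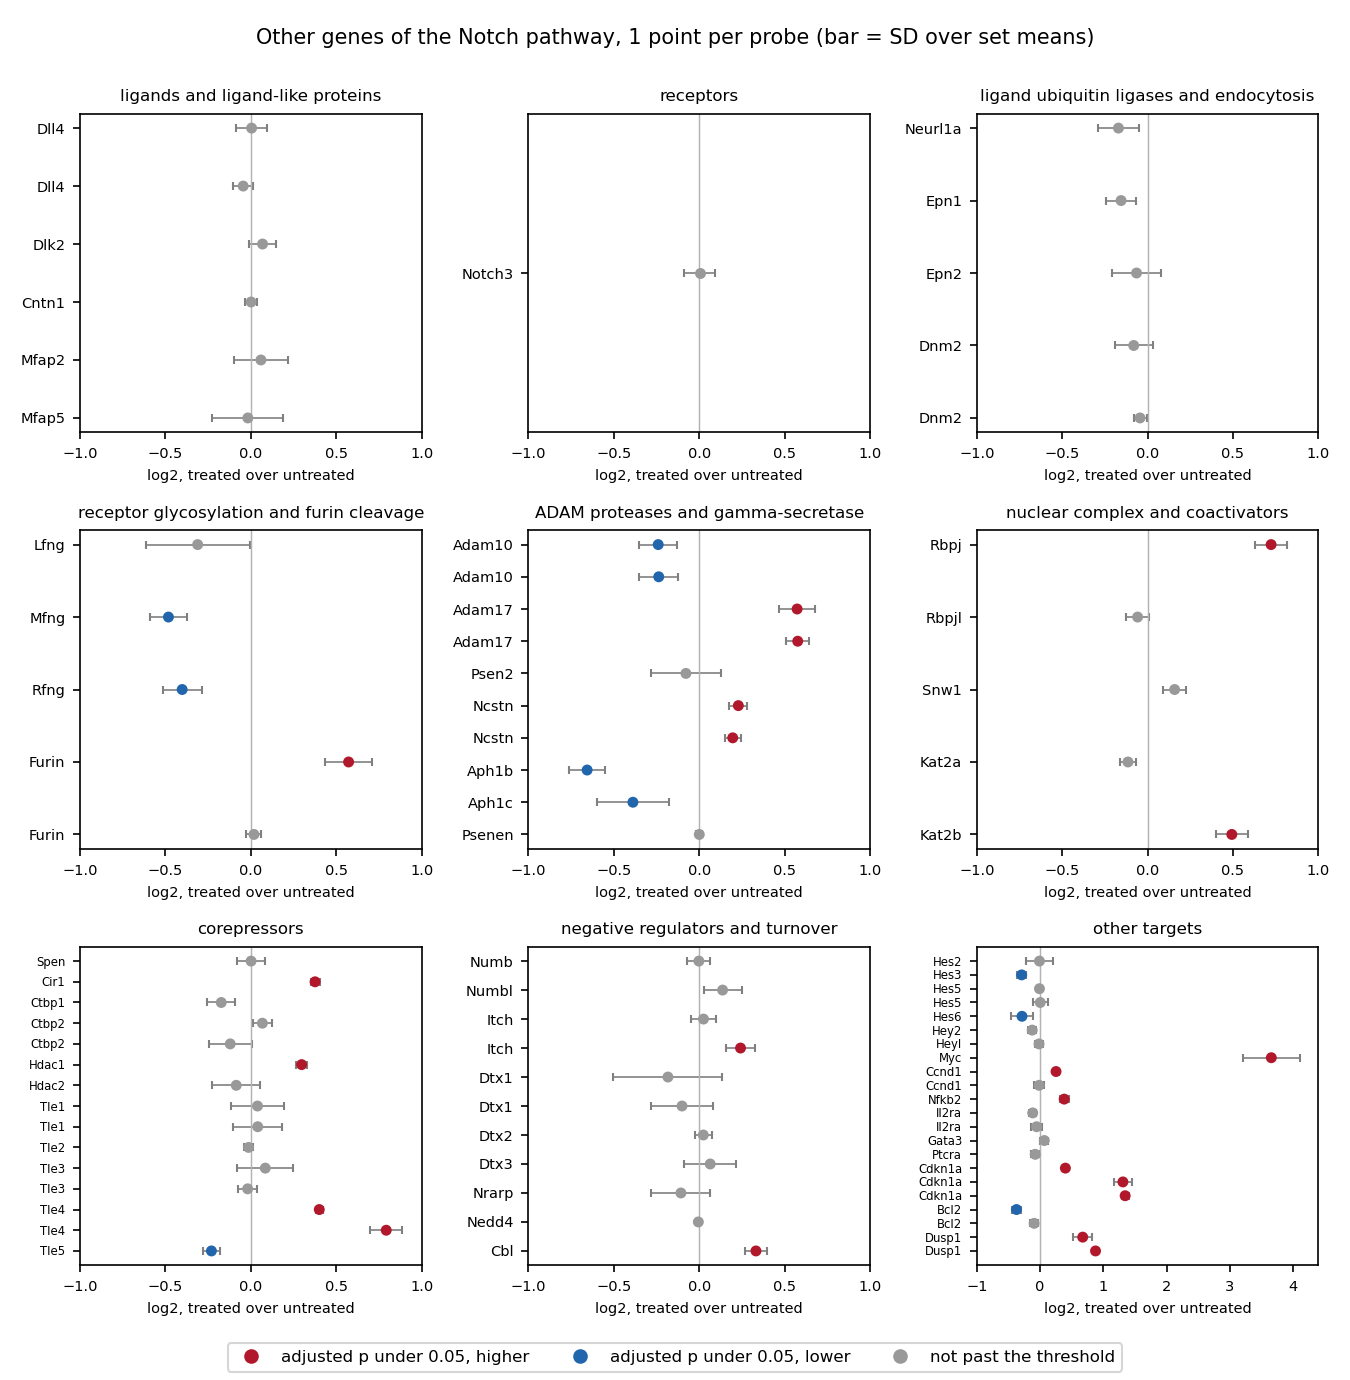
Log2 ratio of treated over untreated cells (horizontal axes) for the other tested Notch pathway genes by role, with 1 point per feature, bars for the SD over set means and colours for limma's call. Adam17, Rbpj and Tle4 lie right of 0, Aph1b, Mfng and Rfng left of it, and Myc at 3.66 needs a wider axis.

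The genes most like the Dll1 and Jag2 features with the larger mean change were sought by the root mean square difference over the measured arrays. The other Dll1 feature, 12221, and the other Jag2 feature, 6795, were not searched. Nearest to the Dll1 feature 17383 over its 5 arrays, among 10782 probes, were Amotl2 at 0.25, the anti-inflammatory cytokine gene Il10 at 0.31 and the peptide transporter gene Tap1 at 0.33. Nearest to the Jag2 feature 16107 over 6 arrays were Ggt6 at 0.082, the flagellin receptor gene Tlr5 at 0.088 and a feature of the LPS receptor gene Tlr4 at 0.11. These differences are in log2 units and describe 6 arrays of 1 contrast only.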

How the data were processed

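The authors deposited a log2 ratio for every feature and array. The base follows from the largest value, 6.643856, the log2 of 100. How the ratios were scanned, background-corrected and normalized is not given in the sources used here. Channel intensities were not used, so dim features could not be filtered out, and precision is limited by the number of arrays. Between 8.16% and 13.9% of features per array were listed at 0 and were taken as not measured.

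Ratios of the treated-Cy3 arrays were multiplied by -1, and both arrays of a set were averaged where both were measured. Probes with at least 2 set means were compared with 0 by the moderated test of limma 3.58.1 (lmFit, eBayes, R 4.3.3), with Benjamini-Hochberg adjustment over all 14343 probes and a threshold of 0.05. A gene was called where at least 1 probe was and no called probe had the other sign. Orientation differences were tested in the same way within sets. Alternatives kept zeros as values, averaged the probes of a gene, centred, scaled or quantile-normalized the arrays, used 1 orientation, used 6 separate arrays with and without the set as a block, or left out a set. Arrays turned to one direction correlated over probes with r of 0.705 to 0.899 within an orientation and of 0.428 to 0.8 between orientations.

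Features were named from the platform annotation, and 13694 of 13738 with 1 symbol matched RefSeq by gene identifier. Members, gene lists and tests were chosen with earlier results of these data known. Named genes were the 8 members, the called pathway genes with the 20 largest changes, the gene of smallest p in each role without a call, 6 LPS response genes and the 3 nearest patterns, and genes outside this rule are marked in the text as named after their values were seen. In 20 simulations of set means for the same 14343 probes, with variances drawn from the prior that limma fits, limma called on average 80.8% of probes changed by 0.5, 98.8% of those changed by 1 and 100% of those changed by 2 or 4 on the log2 scale, and 5.09% of calls were false. That version replaced an earlier one that used the posterior variance of each probe. For the false share it is the easier test, because it follows the model limma assumes. Over 20 simulations the earlier version called 99.5% of probes changed by 0.5 and 100% of those changed by 1, 2 or 4. Its share of false calls was 8.6%, above the nominal share. Each simulation changed only 200 probes, while 4690 were called on the arrays, so neither false share can be carried over to them. The calls on these arrays may still hold more false ones than the threshold states.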

Additional observations from a re-analysis of the deposited data

Results flagged for a closer look

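Hes1 was picked out because its ratios differed between the dye orientations, and they had opposite signs on every measured array. The difference, treated-Cy5 minus treated-Cy3 array, was -5.04 on the log2 scale over sets 1 and 2, with limma's adjusted p of 0.164. Both values of set 3 were listed at 0.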

How the results depend on the processing

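The log2 ratios of both Dll1 features and both Jag2 features kept their sign under every alternative that gave a value for them. Dll1 ran from 1.29 to 1.57 and from 1.39 to 1.93, and Jag2 from -0.92 to -0.63 and from -0.89 to -0.73. Notch2 ran from 0.19 to 0.41, Jag1 from 0.15 to 0.33 and Notch4 from -0.25 to -0.078. Hes1 ran from -2.53 to 2.51 over the orientations alone. Averaging the probes of a gene left 3 of 8 member genes past the threshold, since Dll1 and Jag2 then count once each. Leaving out each set in turn gave 2956 to 4822 called probes, 16 to 28 called pathway genes, 4 to 6 called member features and 0 to 0 probes that differed between orientations, against 4690, 24, 5 and 1. With the 6 arrays as separate replicates and no replicate block 5186 probes were called, and with the set number as a random block 4987, and neither moved a call count by over 1.5 times. On the treated-Cy3 arrays alone 1441 probes were called lower, against 2242, and 4 pathway genes fell, against 9. On the treated-Cy5 arrays alone 2394 probes were called lower and 13 pathway genes fell. Without set 3, 4 pathway genes fell, and without set 2, 12 fell. The small ratios of Notch1 (-0.011 to 0.072) and Hey1 (-0.13 to 0.27) changed sign between alternatives. Arrays of the same set number deviated together in the deposited ratios with r of 0.256, 0.212 and 0.0999 over probes in sets 1, 2 and 3. A pair of different numbers reached 0.112, above set 3 and below the other sets. The set means and the within-set differences paired the arrays on the labels alone. The number of arrays limits every value, and signal over background was not measured here.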
